A study of Mus musculus with 4 samples.

Results

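Enzymes that release arachidonic acid from membrane phospholipids or turn it into prostanoids and leukotrienes were examined in mouse liver with and without LPIAT1. The 10 genes were Pla2g4a, Ptgs1, Ptgs2, Ptges, Hpgds, Tbxas1, Alox5, Alox5ap, Lta4h and Ltc4s. They were found by matching the transcript accession of each array probe to a gene symbol, which gave 13 probes for them, against 23458 genes with a matched probe in all. LPIAT1, encoded by Lpiat1 (Mboat7), attaches arachidonic acid to lysophosphatidylinositol.

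Liver RNA from 4 conditions was hybridised to 4 one-colour arrays, 1 array per condition. F/F mice carried floxed Lpiat1 alleles without Cre. LKO mice (Alb-Cre; Lpiat1F/F) carried the same floxed alleles and a Cre under control of the hepatocyte-specific albumin promoter, so Kupffer cells, endothelium and other non-parenchymal cells keep the gene. All mice were males on a C57BL/6 background aged 24 weeks, and were given chow (CE2) or a high-fat diet (HFD, HFD-60) for 18 weeks, starting at an age of 6 weeks. Pooling of animals before hybridisation was not given in the sources used here. A single array per condition allows no replicate check, and no difference below was tested.

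Cytosolic phospholipase A2 cleaves arachidonic acid from membrane phospholipids. The cyclooxygenases oxidise it to an endoperoxide, from which terminal synthases make prostaglandins and thromboxane. The 5-lipoxygenase branch oxidises it, with the help of an activating membrane protein, to leukotriene A4, from which a hydrolase makes leukotriene B4 and a synthase makes leukotriene C4. In liver, Kupffer cells and recruited leukocytes are well-known producers of prostanoids and leukotrienes, while hepatocytes mainly take up and break down these lipids.

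The start-site regions of Tbxas1, Ptgs1 and Pla2g4a are shown because these genes, measured on all 4 arrays, were higher on both HFD arrays than on both chow arrays. The RefSeq promoter table (build GRCm38.p6) held an entry for 9 of the 10 genes and none for Alox5ap. The 250 bases before the start are written 5′ to 3′ in the direction of transcription, with capitals for TATAAA and for GAGGAA, the core that the myeloid factor PU.1 binds, each on either strand.
Tbxas1, chr6:38918736-38918985, plus strand: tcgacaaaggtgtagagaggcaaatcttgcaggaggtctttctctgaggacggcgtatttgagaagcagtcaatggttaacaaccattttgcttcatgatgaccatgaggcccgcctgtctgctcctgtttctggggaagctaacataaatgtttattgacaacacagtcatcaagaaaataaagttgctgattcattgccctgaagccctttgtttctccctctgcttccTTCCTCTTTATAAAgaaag
Ptgs1, chr2:36230176-36230425, plus strand: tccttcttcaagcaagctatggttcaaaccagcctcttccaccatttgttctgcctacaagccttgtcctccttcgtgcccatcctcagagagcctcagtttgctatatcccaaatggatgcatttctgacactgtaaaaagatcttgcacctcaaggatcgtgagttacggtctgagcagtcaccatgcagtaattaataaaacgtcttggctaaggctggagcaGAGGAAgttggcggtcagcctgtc
Pla2g4a, upstream start, chr1:149961291-149961540, minus strand: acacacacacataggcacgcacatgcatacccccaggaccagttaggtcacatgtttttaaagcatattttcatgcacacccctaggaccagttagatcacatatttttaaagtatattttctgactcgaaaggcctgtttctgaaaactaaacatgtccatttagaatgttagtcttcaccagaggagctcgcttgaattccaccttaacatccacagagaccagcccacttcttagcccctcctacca
Pla2g4a, downstream start, chr1:149922440-149922689, minus strand: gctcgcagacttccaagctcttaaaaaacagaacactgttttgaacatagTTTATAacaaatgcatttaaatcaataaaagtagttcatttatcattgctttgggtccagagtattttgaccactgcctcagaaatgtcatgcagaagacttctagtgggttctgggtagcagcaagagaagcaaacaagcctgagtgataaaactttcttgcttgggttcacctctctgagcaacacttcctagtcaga
In Tbxas1, GAGGAA stands on the opposite strand next to TATAAA just before the start. Ptgs1 has GAGGAA close to its start, and neither window of Pla2g4a has it. Over the windows of 300 bases, which also take in the first bases of the transcript, GAGGAA was found for 8 of the 9 genes with an entry, all but Pla2g4a, and in 28.3% of the 32851 promoters in the table. TATAAA was found for Tbxas1 and Pla2g4a, and in 13.6% of all promoters. The E-box CACGTG was found for Ptgs2 alone among the 9, and in 7.15% of all promoters. The cAMP response element TGACGTCA and the NF-kB consensus were found for none of the 9, and in 1.79% and 0.155% of all promoters. A match is a run of letters and no sign of binding.

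The arrays were of similar quality. Between 53.0% and 57.0% of the 59305 non-control spots on each array were marked well above background by the scanner software, and no spot was saturated. All 10 hepatocyte markers were well above background on every array. Mboat7 itself had 1 probe, with signals of 1102 in F/F on chow, 861 in LKO on chow, 1181 in F/F on HFD and 1100 in LKO on HFD. Its log2 difference between LKO and F/F was -0.30 on chow and -0.27 on HFD, and where the probe lies relative to the deleted part was not determined, so the probe is no clear check of the labels. Differences below are on the log2 scale after scaling to the 75th percentile of the spots of each array. Each is set against 2 SD of the difference between replicate spots of the same probe on 1 array. That limit holds spot-to-spot error only, and leaves out error between arrays and the difference between mice. This limit depended on the signal. It was 1.30 for signals under 10, 0.76 from 10 to 30, 0.40 from 30 to 100, 0.30 from 100 to 300, 0.25 from 300 to 1000 and 0.14 above 1000. The limit from 100 to 300 rests on 8 probe readings.

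Of the 13 probes, 8 passed the background limit on all 4 arrays and 2 on none. Counted by the brightest probe, 7 of the 10 genes were measured on all 4 arrays: Pla2g4a, Ptgs1, Ptges, Tbxas1, Alox5ap, Lta4h and Ltc4s. Hpgds and Alox5 were seen on HFD arrays only, and Ptgs2 on none. In a whole liver, fewer cells of a type and less RNA per cell cannot be told apart.

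**Figure D1:**
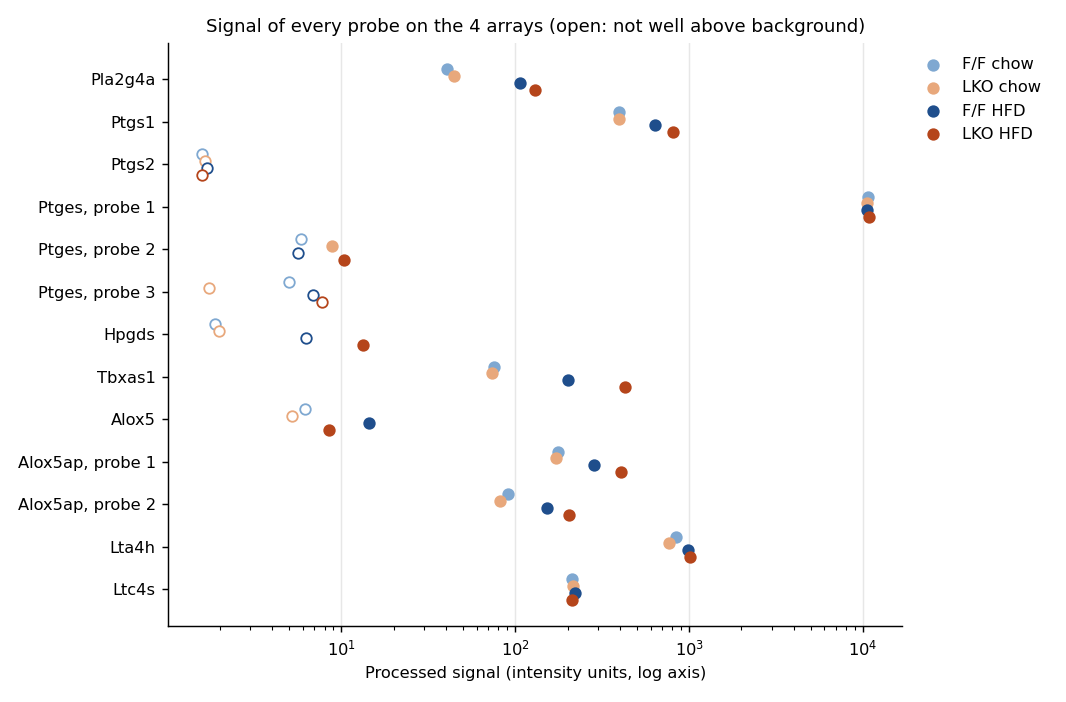
Processed signal (intensity units, log axis) of every probe of the 10 genes on the 4 arrays; each point is 1 array, and open points were not well above background. The Tbxas1 points spread from 74.0 to 425, those of Ltc4s from 212 to 221, and all 4 Ptgs2 points are open.

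Among the genes well above background on all 4 arrays, Tbxas1 (thromboxane A synthase, abundant in platelets and macrophages) differed most between the conditions. Its signal was 75.2 in F/F on chow, 74.0 in LKO on chow, 202 in F/F on HFD and 425 in LKO on HFD. The chow arrays were alike and both lower than the HFD arrays, of which LKO was the higher. The log2 difference between HFD and chow was 1.18 in F/F and 2.05 in LKO, folds of 2.26 and 4.15. LKO against F/F differed by 0.03 on chow, within the replicate-spot limit, and by 0.91 (1.88-fold) on HFD, beyond it. The LKO difference was thus 0.88 larger on HFD than on chow, a quantity that was not tested. Normexp background correction lowered the diet difference in F/F to 0.78, under 2-fold, and that in LKO to 1.5.

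Pla2g4a (cytosolic phospholipase A2 alpha, which frees arachidonic acid from membranes) separated the diets but hardly the genotypes. Its signal was 40.6 in F/F on chow, 44.4 in LKO on chow, 106 in F/F on HFD and 130 in LKO on HFD. The log2 difference between HFD and chow was 1.14 in F/F and 1.08 in LKO, folds of 2.20 and 2.12, both beyond the replicate-spot limit of 0.40. Both HFD signals were above both chow signals. LKO against F/F differed by 0.19 on chow and 0.13 on HFD, each within the limit. Normexp, which started from median spot signals and added an offset of 50, brought both diet differences to 0.55, under 2-fold.

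The cyclooxygenases differed in whether they could be measured. Ptgs1 (cyclooxygenase-1, the constitutive form) had signals of 397 in F/F on chow, 395 in LKO on chow, 635 in F/F on HFD and 809 in LKO on HFD. Its log2 difference between HFD and chow was 0.43 in F/F and 0.56 in LKO, both beyond 0.25. The genotypes differed by 0.05 on chow and 0.18 on HFD, within it. Ptgs2 (cyclooxygenase-2, the inducible form) had signals of 1.57, 1.64, 1.68 and 1.57 in the same order and was well above background on no array. No difference can be given for it, and its RNA was not detectable by this probe in any of the conditions.

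The prostaglandin synthases gave less certain readings. Ptges (microsomal prostaglandin E synthase, usually an inducible enzyme) had 3 probes that disagreed. The brightest gave 10639 in F/F on chow, 10556 in LKO on chow, 10511 in F/F on HFD and 10834 in LKO on HFD. After scaling it was 0.26 lower on HFD in F/F and 0.43 lower in LKO, and it differed between the genotypes by 0.04 on chow and -0.12 on HFD. The second probe gave 5.89, 8.87, 5.66 and 10.4, and was well above background on the LKO arrays alone. Signals this dim differ by less than the limit of 1.30 between the genotypes, so no difference is read from them. The third probe gave 4.97, 1.73, 6.83 and 7.77 and was well above background on none. No statement on Ptges holds for all of its probes. Hpgds (hematopoietic prostaglandin D synthase, found in mast cells and macrophages) gave 1.89, 1.99, 6.24 and 13.4. It was well above background in LKO on HFD alone, by the bound at least 1.43-fold above F/F on HFD and at least 1.19-fold above LKO on chow. With no filter the difference from F/F on HFD was 0.94, inside the limit of 1.30, and that from LKO on chow was 2.28, beyond it. The signals of 6.24 in F/F on HFD and 1.99 in LKO on chow were not well above background, so neither is a measured difference. Under normexp the difference from F/F on HFD was 0.05 and that from LKO on chow had no value.

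The 5-lipoxygenase branch did not move as 1 group. Alox5 (5-lipoxygenase, an enzyme of myeloid cells) was dim, with signals of 6.18 in F/F on chow, 5.22 in LKO on chow, 14.4 in F/F on HFD and 8.44 in LKO on HFD. It was well above background on the HFD arrays only, where LKO was lower than F/F by 0.94, a difference inside the limit of 1.30 for so dim a probe. F/F on HFD was at least 1.55-fold above F/F on chow by the background bound, but the difference was 0.97 with no filter, also inside that limit, and 0.0091 under normexp. Alox5ap (5-lipoxygenase-activating protein, FLAP, which presents arachidonic acid to the enzyme) had 2 probes that ran alike. The brighter gave 177 in F/F on chow, 171 in LKO on chow, 284 in F/F on HFD and 406 in LKO on HFD. The dimmer gave 90.5, 81.8, 153 and 205. Both were higher on HFD than on chow in both genotypes, by 0.44 and 0.51 in F/F and by 0.78 and 0.85 in LKO. LKO against F/F was 0.34 and 0.25 higher on HFD, the first beyond its limit and the second within it, and 0.01 and -0.09 on chow, both within.

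The enzymes at the end of this branch were flat or lower. Lta4h (leukotriene A4 hydrolase, present in many cell types) had signals of 843 in F/F on chow, 764 in LKO on chow, 991 in F/F on HFD and 1011 in LKO on HFD. None of its differences passed the replicate-spot limit, and they lay between -0.14 and -0.01. Ltc4s (leukotriene C4 synthase, of mast cells, eosinophils and macrophages) had signals of 212, 214, 221 and 212. After scaling, LKO on HFD was 0.49 lower than LKO on chow, beyond the limit of 0.30, and the other 3 differences were 0.08, -0.23 and -0.18, all within it. The HFD arrays were brighter as a whole, with 75th percentiles of 263 and 296 against 222 and 213 on chow, so an even raw signal becomes a lower scaled level.

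**Figure D2:**
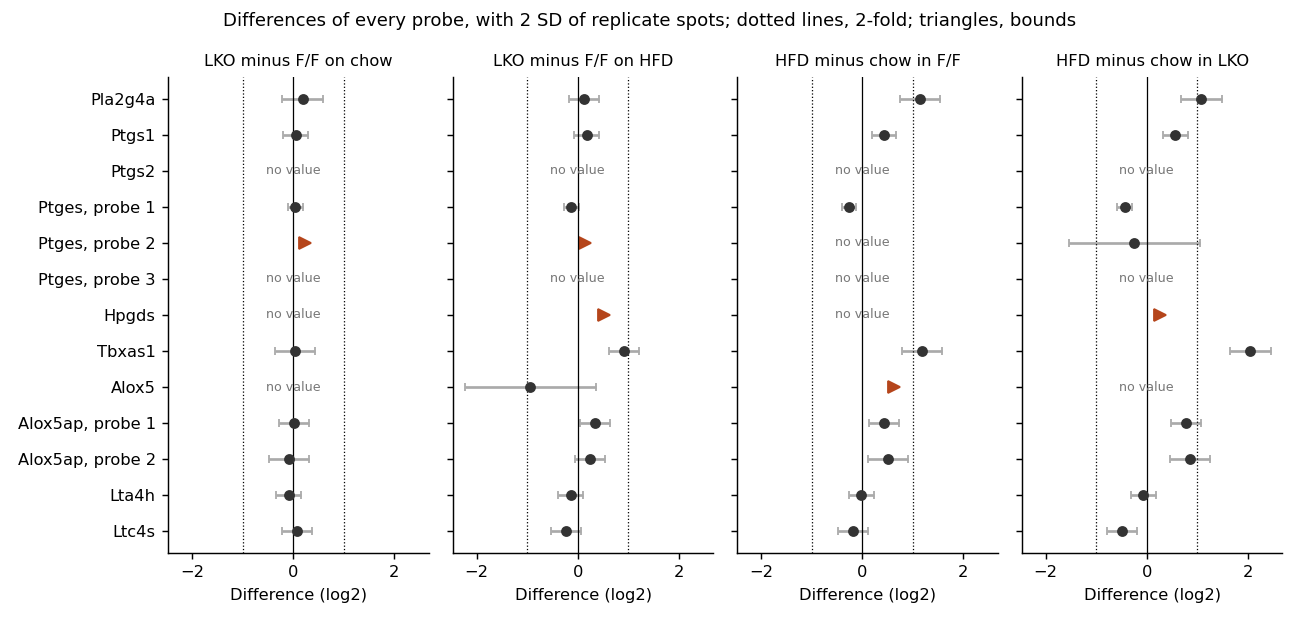
Log2 difference of every probe in the 4 comparisons, with bars of 2 SD of replicate spots on 1 array (spot-to-spot error only). Triangles are bounds and dotted lines mark 2-fold. On chow every bar crosses 0, on HFD the bars of Tbxas1 (0.91) and of the brighter Alox5ap probe (0.34) do not, and Tbxas1 and Pla2g4a pass 2-fold between the diets.

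Counts by gene were set beside those of all genes on the array. For LKO against F/F on chow, 7 genes had a value, none of them at least 2-fold apart, and the median was 0.04 against 0.00 for all genes. In that comparison 1.11% of all genes were at least 2-fold higher in LKO and 1.03% lower. On HFD, 9 genes had a value, 5 higher and 4 lower in LKO, with a median of 0.13 against -0.03 for all genes. None of the 8 measured was at least 2-fold apart, and Hpgds had only a lower bound of 1.43-fold. There 2.36% of all genes were at least 2-fold higher and 1.91% lower. The median of the 8 genes measured on both HFD arrays, without the bound of Hpgds, was 0.00.

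Between HFD and chow in F/F, 8 genes had a value and 2 of them, Tbxas1 and Pla2g4a, were at least 2-fold higher on HFD, where 5.21% of all genes were that much higher and 2.94% lower. The median of the 8 was 0.43 against -0.02 for all genes. In LKO the same pair of genes passed 2-fold among 8 with a value, where 8.12% of all genes were at least 2-fold higher and 4.08% lower. The median was 0.41 against -0.07 for all genes. None of the genes with a value was at least 2-fold lower in any comparison, and Ptgs2 had no value in any. Between the diets, Alox5 in F/F and Hpgds in LKO had only lower bounds, so their full size is not known. Without Ptges, whose probes disagree, the median in LKO was 0.56, and under normexp the counts of 2 fell to 0 in F/F and 1 in LKO. The comparisons share arrays, so their counts are not separate evidence.

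Several cell type marker lists moved with the higher genes. The 12 markers of monocytes and recruited macrophages had a summed signal, in multiples of the 75th percentile of the array, of 38.3 in F/F on chow, 38.4 in LKO on chow, 62.4 in F/F on HFD and 89.4 in LKO on HFD, highest in LKO on HFD and next in F/F on HFD, as Tbxas1 and Alox5ap were. On both HFD arrays all 12 were well above background, and all 12 were higher in LKO on HFD, with a median of 0.91. Among them Trem2 (a receptor of lipid-associated macrophages) had signals of 36.7, 54.3, 353 and 1871, and Itgax (CD11c) of 23.0, 28.6, 157 and 491. The sum of the 10 Kupffer cell markers was 105, 99.7, 135 and 173. Cd5l had the largest share on every array, with signals of 8540, 8813, 16520 and 29783. In LKO on HFD 7 were higher and 3 lower, the lower ones being Marco (-1.64), Timd4 (-0.95) and Cd163 (-0.65). The part of both lists in the differences of Tbxas1, Ptgs1, Pla2g4a, Alox5ap and Hpgds was not tested.

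Markers of other eicosanoid-making cells and of lymphocytes were followed in the same way. The sum of the 10 platelet and megakaryocyte markers was 2.09, 2.15, 2.75 and 3.90 multiples in the same order, mostly Itgb3 and Pf4. In LKO on HFD 5 were higher and 3 lower, the lower ones being Ppbp (-0.37), Itga2b (-0.76) and Gp9 (-0.80). Gp1ba and Gp5, parts of the platelet von Willebrand receptor, were well above background on no array. Of the 10 mast cell and basophil markers matched, 6 were well above background on no array, among them the proteases Cpa3, Cma1, Mcpt4 and Mcpt8 and the IgE receptor chains Fcer1a and Ms4a2, and the sum was 1.93, 1.56, 2.39 and 2.44. The 7 eosinophil markers summed to 2.42, 2.71, 5.75 and 15.0, nearly all of it from the ribonucleases Ear1 and Ear2, and 3 of them (Prg2, Epx and Il5ra) were well above background on no array. The 4 with a value were higher in LKO on HFD, with a median of 1.40. Neutrophil markers summed to 23.2, 12.9, 24.2 and 15.8, a sum carried by S100a8 and S100a9. Of the 11 with a value, 3 were higher and 8 lower in LKO on each diet, and Ltf (1.23) and Mpo (0.65) were among the higher ones on HFD. Markers of T, NK and B cells summed to 22.0, 19.6, 16.8 and 16.8, mostly Cd4, whereas by count 7 were higher and 2 lower in LKO on HFD, with a median of 0.45. The part of these lists in the member differences was not tested.

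Some lists differed for tissue other than leukocytes. The sum of the 10 hepatocyte markers was 4969, 5056, 3915 and 3380, lower on HFD and lowest in LKO on HFD. The 75th percentile rose from 222 and 213 on chow to 263 and 296 on HFD, which lowers every scaled level there. Before scaling, Alb was nearly even, with signals of 231569, 228565, 221091 and 222615 in the same order. Cps1 was lower on HFD, with 7877, 7326, 4325 and 4986. The exocrine pancreas markers summed to 25.7, 15.0, 13.5 and 50.2 multiples. On HFD 11 of the 12 exceeded F/F in LKO by 2-fold or more, on the array where Tbxas1 and Hpgds were also highest. On chow all 11 with a value were lower in LKO, with a median of -1.20, where Tbxas1 differed by 0.03. Between HFD and chow, 11 of 12 were lower in F/F, with a median of -0.74, where Tbxas1 was higher. In LKO all 12 were higher on HFD, as Tbxas1 was. Red blood cell markers summed to 107, 105, 199 and 101. Lists of sinusoidal endothelium summed to 46.9, 48.6, 57.8 and 57.6, and of stellate cells and myofibroblasts to 81.8, 86.0, 113 and 132. The cholangiocyte sum of 5.27, 4.75, 13.7 and 15.7 was mostly Spp1 (osteopontin, also made by macrophages), with signals of 840, 796, 3314 and 4158. By count, its markers were split only for the diets in F/F, with 4 up, 4 down and a median of 0.08. For the diets in LKO, 7 of 8 were up, with a median of 0.65. Against F/F, 7 of 8 were up in LKO on HFD (median 0.46), whereas 6 of 7 were down on chow (median -0.42). The part of these lists was not tested either.

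**Figure D3:**
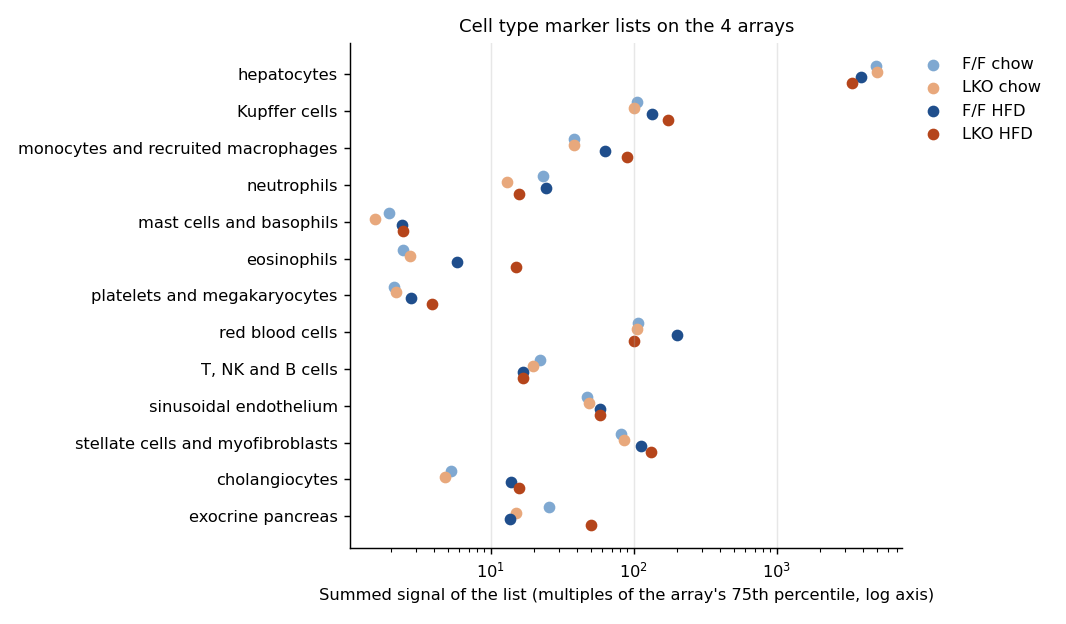
Summed signal of each cell type marker list on the 4 arrays, in multiples of the 75th percentile of the array (log axis); each point is 1 array. The macrophage list runs from 38.3 and 38.4 on chow to 89.4 in LKO on HFD. The hepatocyte list is lowest there, at 3380, on the array with the highest 75th percentile.

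Genes with patterns like those of Tbxas1 and Pla2g4a over the 4 arrays were sought by distance between log2 patterns centred on their means, among the 13977 other genes well above background on all 4 arrays. Nearest to Tbxas1 were Arhgap25 (a Rac regulator of leukocytes) at a distance of 0.11, Capg (an actin-capping protein of macrophages) at 0.11 and Ciita (the master activator of MHC class II genes) at 0.15. Capg, for example, had signals of 282, 300, 740 and 1625. Within a distance of 0.5 lay 208 genes. Nearest to Pla2g4a were Slc20a1 (a phosphate transporter) at 0.05, Npl (an enzyme of sialic acid breakdown) at 0.06 and Plpp7 at 0.07, and 820 genes lay within 0.5. With 4 points a close pattern is easily met.

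**Figure D4:**
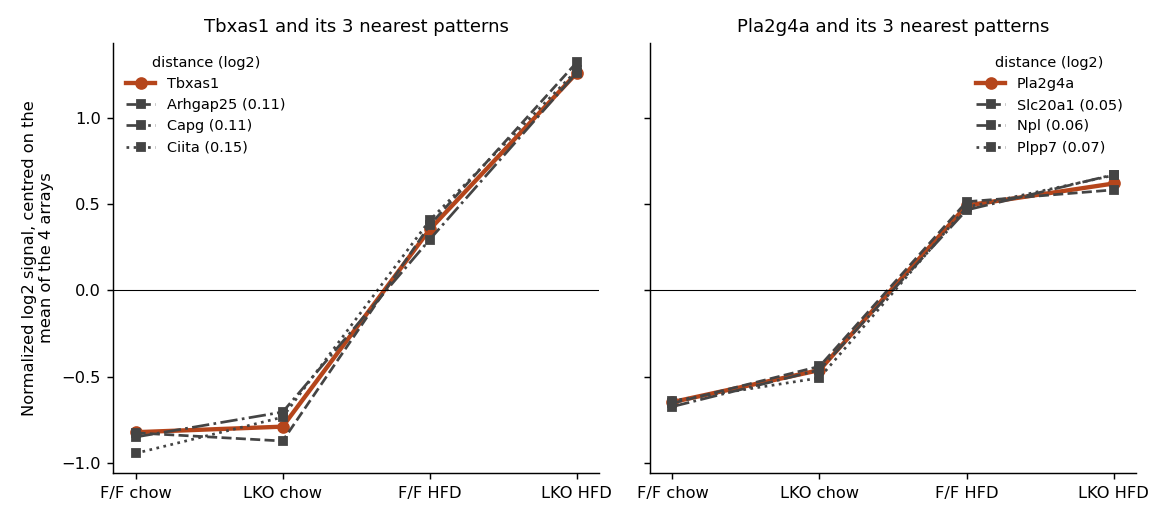
Normalized log2 signal of Tbxas1 (left) and Pla2g4a (right) with their 3 nearest genes, each centred on its own mean over the 4 arrays; points are single arrays and the distance is given in brackets. Tbxas1 and its neighbours step up at F/F on HFD and again at LKO on HFD, and Pla2g4a and its neighbours step up mainly between the diets.

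The rest of the pathway was followed in 115 other genes, of which 113 had a matched probe and 20 were well above background on no array. At least 2-fold apart were 1 of the 84 with a value for LKO against F/F on chow (lower), and 12 of 88 on HFD (8 higher, 4 lower). Between HFD and chow the counts were 21 of 89 in F/F (4 higher, 17 lower) and 24 of 85 in LKO (11 higher, 13 lower). The shares of all genes at that size are those given above.

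Among other phospholipases and lipases, Pla2g7 (lipoprotein-associated phospholipase A2, of macrophages) stood at 221 in F/F on chow, 250 in LKO on chow, 394 in F/F on HFD and 1018 in LKO on HFD. LKO was 1.20 higher on HFD, and HFD was 1.56 higher than chow in LKO and 0.59 higher in F/F. No other gene of the list was at least 2-fold apart in any comparison, and the largest measured difference on chow was that of Pla2g2f, -0.45, within the limit for its dim probe.

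Of the prostanoid synthesis, transport and breakdown genes, Ptgds (lipocalin-type prostaglandin D synthase) had signals of 62.3, 32.5, 15.8 and 11.7, highest on the chow arrays. It was lower on HFD by 2.24 in F/F and by 1.95 in LKO, and its difference of -0.88 between LKO and F/F on chow was the largest of the list there. Slco2a1 (the prostaglandin transporter) was lower on HFD by 1.36 in F/F. Ptgr1 (prostaglandin reductase 1, which inactivates leukotriene B4 and prostaglandin metabolites) was 1.05 higher in LKO on HFD and 1.09 higher on HFD within LKO, and Akr1b3, an aldo-keto reductase, was 1.26 higher there.

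In the lipoxygenase and leukotriene breakdown list, Mgst3 (a microsomal glutathione transferase) had signals of 547, 751, 1835 and 2676 and was higher on HFD by 1.5 in F/F and 1.36 in LKO. Cyp4f18 (which hydroxylates leukotriene B4 in myeloid cells) had signals of 125, 97.7, 205 and 513, 1.15 higher in LKO on HFD and 1.92 higher on HFD within LKO. Dpep2 (a leukotriene D4 dipeptidase) was 1.22 higher in LKO on HFD, and within LKO it was at least 2.58-fold higher on HFD. Cyp4f16 was 1.19 higher in LKO on HFD. On chow the largest measured difference was that of Ggt5, 0.59, within its limit.

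Of the receptors, Ptger2 and Ptger4 (prostaglandin E receptors) were higher on HFD within LKO by 1.05 and 1.08. Ptgfr (prostaglandin F receptor) was well above background on the HFD arrays only, at 27.0 in F/F and 35.1 in LKO. It was at least 2.92-fold above chow in F/F and at least 3.13-fold in LKO. Cysltr1 (a receptor for cysteinyl leukotrienes) was 1.31 higher on HFD in F/F, from a signal of 9.53, barely beyond the limit of 1.30 for so dim a probe. In LKO it was 0.96 higher on HFD, under 2-fold. Ptger3, by the brighter of its 2 probes, was well above background in F/F on chow alone, at 34.9, with 1.78, 1.81 and 1.63 on the other arrays. That was at least 4.15-fold above LKO on chow and at least 4.96-fold above F/F on HFD. It was the 1 other pathway gene at least 2-fold apart between the genotypes on chow. Under normexp, and with the mean of all probes, that count was 0. Tbxa2r, the receptor for the product of Tbxas1, had signals of 26.3, 31.1, 26.0 and 53.0, and its difference of 0.86 in LKO on HFD was the largest measured in the list there.

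The cytochrome P450 and epoxide hydrolase branch, which oxidises arachidonic acid in hepatocytes, was the part of the pathway with the most genes lower on HFD. With HFD in F/F, 24 of 26 genes with a value were lower and 13 were at least 2-fold lower, with a median of -1.04. Of all genes 2.94% were that much lower, with a median of -0.02. In LKO, 23 of 25 were lower and 12 at least 2-fold lower, with a median of -0.98, against 4.08% and a median of -0.07 for all genes. The 12 in LKO were all Cyp2c genes, from Cyp2c40 (-1.02) to Cyp2c38 (-2.56). The 13 in F/F were 8 Cyp2c genes, from Cyp2c23 (-1.21) to Cyp2c55 (-2.13), and 5 Cyp4a genes, from Cyp4a14 (-1.24) to Cyp4a12b (-2.08). LKO against F/F on HFD, Cyp2c37 (-1.11), Cyp2c38 (-1.27), Cyp2c50 (-1.06) and Cyp2c54 (-1.01) were lower and Cyp4a12a (1.30) and Cyp4a12b (1.27) higher, and on chow the largest difference was that of Cyp4a10, -0.55. Cyp2c38 had signals of 20827 in F/F on chow, 15913 in LKO on chow, 7998 in F/F on HFD and 3735 in LKO on HFD, and Cyp4a12a had 5975, 6837, 1735 and 4792. Members of these families are close in sequence and their probes may share signal, so single names are uncertain and the counts may not be of separate genes. The sum of the hepatocyte markers was also lower on HFD, and its part was not tested.

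Of the genes that make, activate or re-esterify arachidonic acid, Fads2 (delta-6 desaturase) had signals of 2549, 3965, 7252 and 10421. It was 1.26 higher on HFD in F/F, and its 0.69 was the largest measured difference of the list between LKO and F/F on chow. Mboat1 (a lysophospholipid acyltransferase) had signals of 20.8, 13.6, 30.6 and 73.5, 1.10 higher in LKO on HFD and 1.97 higher on HFD within LKO. Lpcat2 (a lysophosphatidylcholine acyltransferase of inflammatory cells) was 1.28 higher on HFD within LKO. Acsl6 was well above background in F/F on chow alone and at least 2.04-fold higher there than in F/F on HFD.

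**Figure D5:**
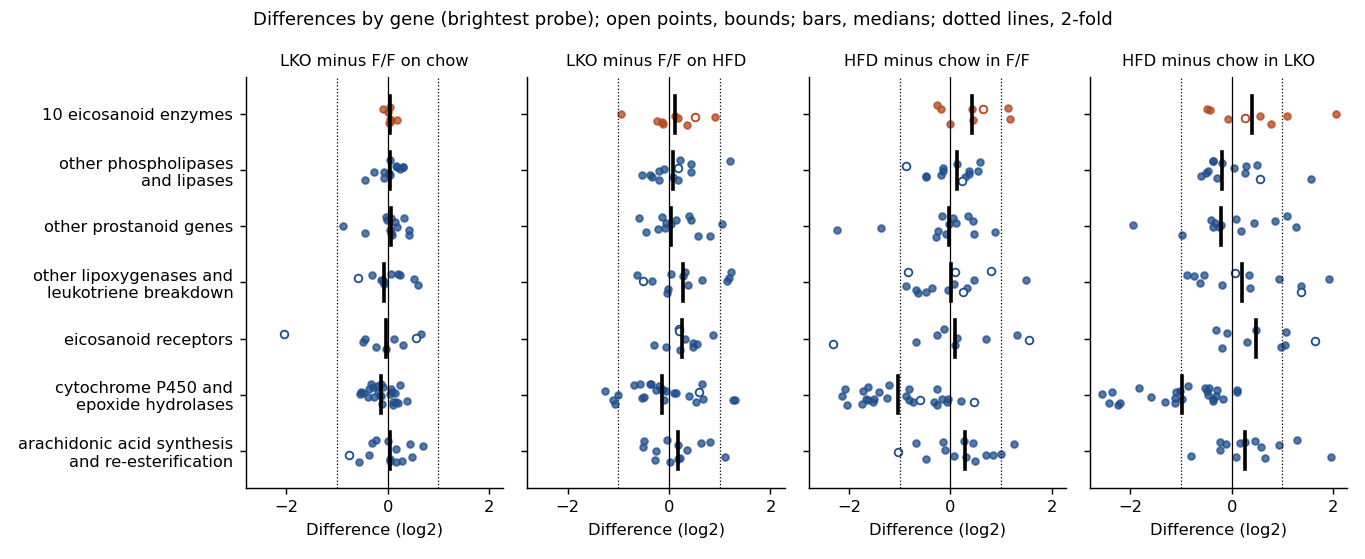
Log2 difference of each gene (brightest probe) in the 4 comparisons, by list; open points are bounds, black bars are list medians and dotted lines mark 2-fold. The measured enzymes lie within 2-fold in both genotype comparisons (7 genes on chow, 8 on HFD), Hpgds is a lower bound on HFD, and the cytochrome P450 list has its median at -1.04 and -0.98 in the diet comparisons.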

How the data were processed

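Expression in liver was measured with 4 one-colour Agilent SurePrint arrays, 1 for each genotype and diet, grouped by the genotype and diet in the labels. Spot intensity was deposited as given by Agilent Feature Extraction 12.0.3.1, already background-subtracted, and a table of values that equals this intensity times 1 factor per array. For F/F and LKO on chow, then F/F and LKO on HFD, the factors were 2.60, 2.63, 2.41 and 2.10 and the column medians 34.48, 33.17, 36.15 and 36.02. The origin of the factors is not given in the sources used here. The file headers give all 4 arrays the same scan time.

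From the processed intensity, log2 minus the 75th percentile of the non-control spots of the array was computed (Python 3.11.15, pandas 2.3.3, numpy 2.4.6). Spots of a probe were averaged without outlier spots. Of 56605 probes, 33762 (59.6%) were matched to genes by accession through the RefSeq table of GRCm38.p6. The brightest probe stood for a gene in counts. A probe not well above background on 1 of 2 arrays gave a bound, against the higher of its own signal and the dimmest signal that passed the background limit on that array (7.80, 8.09, 8.35 and 7.81 in the same order), and on both no value. No test was made. The steps were tested on simulated data.

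The genes named are all 10 members, Mboat7 and, in each other pathway list, the genes at least 2-fold apart in a comparison or, where there were none, the largest measured difference. The CYP genes are named by their extremes. For members well above background on all 4 arrays with a range of at least 1 (log2), the 3 nearest patterns are named. The members and lists were chosen with earlier results of these data known. Trem2, Itgax and other single cell type markers were picked after their values were seen. Alternatives were normexp (offset 50, limma 3.58.1, R 4.3.3), quantile normalization, another percentile, the deposited table, no filter, the mean of all probes and a 1.5-fold threshold. Figures were drawn with matplotlib 3.10.9.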

Additional observations from a re-analysis of the deposited data

Results flagged for a closer look

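For 9 of the 113 other pathway genes with a matched probe, LKO differed from F/F in opposite directions on the 2 diets. Each time the difference was beyond the limit of replicate spots, which is only 0.14 for signals above 1000. The share of all genes with such a pattern was not counted, so the 9 cannot be set against it. Each difference rests on 1 array per condition, and the change of direction was not tested. The value given is the log2 difference on HFD minus that on chow. For the phospholipases and lipases it was -0.83 for Pla2g6, 0.44 for Pla2g12b and -0.49 for Mgll, which releases arachidonic acid from an endocannabinoid. For the receptor Ptger4 it was 0.96. For the omega-hydroxylases it was 1.20 for Cyp4a10, 0.87 for Cyp4a14 and 1.19 for Cyp4a31, which may share signal. For the elongases it was -0.69 for Elovl2 and -0.54 for Elovl5. None of the 10 eicosanoid enzymes met this rule, since on chow 7 were within the limit and 3 had no value. This is no contrast with the 9 genes.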

How the results depend on the processing

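No paired analysis was possible because each condition has 1 array and the labels give no replicate numbers. Of 191 values of single members under the alternatives, 177 moved by less than 1 SD of replicate spots and 14 moved by more. None of those at least 2-fold apart changed sign. Part of this agreement was fixed in advance. The deposited table equals the intensity times 1 factor per array, so its 32 values could not move. No filter leaves measured values as they were, and the mean of all probes leaves the 8 genes with 1 probe so. Of the 31 values under normexp, 6 moved. Normexp, run on median spot signals for want of a mean signal column, left 0 members at least 2-fold apart between the diets in F/F and 1 in LKO. The median of the members in F/F was then 0.19. It gave 0 other pathway genes at least 2-fold apart between the genotypes on chow, 7 on HFD and 15 between the diets in LKO. With no filter and no floor, 7 other pathway genes were apart on chow, 23 on HFD and 33 between the diets in F/F, and the median of the members on HFD was 0.0017. The members at least 2-fold apart between the diets then numbered 3 in F/F and 3 in LKO. With the mean of all probes, 0 were apart on chow, and the differences of Ptges became -0.26 on chow, 0.20 on HFD and 0.34 between the diets in LKO, since its probes disagree. At 1.5-fold, 2 members were apart between the genotypes on HFD, and the other pathway genes numbered 7 on chow, 23 on HFD, 40 between the diets in F/F and 38 in LKO. Without Ptges, an alternative chosen after seeing the data, the median between the diets in LKO was 0.56. The cause of the changes under normexp was not tested. Dim probes limit Alox5 (-0.96 to -0.19 between the genotypes on HFD, 0.0091 to 0.97 between the diets in F/F) and Hpgds (0.05 to 0.94, and 0.26 to 2.28 between the diets in LKO).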
